A study of Mus musculus with 70 samples.

Results

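The genes described here encode the subunits of the 5 oxidative phosphorylation complexes, in the nuclear and in the mitochondrial genome of the mouse. They were taken by symbol from the 35197 genes of the count table: the 13 protein-coding genes of mitochondrial DNA (mt-Nd, mt-Co, mt-Atp and mt-Cytb), and the Nduf subunits of complex I, Sdha to Sdhd of complex II, the Uqcr genes of complex III, Cox4 to Cox8 of complex IV and the Atp5 genes of ATP synthase. This gave 98 members, 85 nuclear and 13 mitochondrially encoded. A further 7 pseudogene rows with the same symbols, which held 1 to 15 counts over all libraries, were left out, and Ndufab1, a complex I subunit whose symbol has another form, was not captured by the rule. The study grew 8 mouse cancer cell lines in DMEM with serum and sequenced their RNA after 48 h with 1000 activity units per mL of interferon beta (IFNb), after 48 h with 100 ng per mL of interferon gamma (IFNg), or with neither (labelled NS). By their labels LLC comes from lung cancer, Renca from renal cancer, Panc02.3 and KPC.2 from pancreatic cancer, MC38.7 and CT26.2 from colorectal cancer, and YUMMER1.7 and B16.1 from melanoma. CT26.2 and Renca have the BALB/c genotype and the other 6 lines the C57BL/6 genotype, and several names carry a number (B16.1, CT26.2, KPC.2, MC38.7, Panc02.3) that the labels do not explain. There were 24 IFNb, 23 IFNg and 23 NS libraries, 3 in each of 22 groups and 2 in the LLC IFNg and Renca NS groups. Since the labels do not state whether replicates were grown as separate cultures, a p-value here reflects only library-to-library spread, possibly technical.

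Oxidative phosphorylation passes electrons from NADH through complex I, and from succinate through complex II, to coenzyme Q, then through complex III and cytochrome c to complex IV, which reduces oxygen. Complexes I, III and IV pump protons across the inner mitochondrial membrane, and complex V, the ATP synthase, uses the gradient to make ATP. Complex II is wholly nuclear encoded, while the other complexes need subunits from both genomes. Mitochondrial DNA is transcribed from both strands as long precursors that are cut into mRNAs, so the levels of its mRNAs depend on processing and decay as well as on transcription. Interferons act through receptors and STAT factors on nuclear genes, and several of their known targets act in mitochondria.

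Libraries held 668355 to 28550816 assigned counts, with a median of 8644887, and the mitochondrially encoded members took between 1.44% (LLC with IFNb, group mean) and 4.17% (Renca NS) of them. Levels are CPM after TMM scaling, and a difference is a log2 fold change with its standard error (±) from edgeR's quasi-likelihood fit over all 70 libraries. A gene was called as risen or fallen when its Benjamini-Hochberg adjusted p over the 16147 genes tested was below 0.05. The "mean of lines" weights the 8 lines equally. Of the members, 92 were tested, 79 nuclear and all 13 mitochondrially encoded. The untested ones were Cox4i2, Cox6b2, Cox6c2, Cox7b2, Cox8b and Cox8c, isoforms described mainly from muscle, lung or testis. As a check of the treatments, all 10 of 10 interferon response genes rose with IFNg in each line and with IFNb in 6 lines, but only 8 rose with IFNb in Renca, and in the YUMMER1.7 libraries labelled IFNb 2 rose and 3 fell. The leukocyte marker Adgre1 was at 0 in every IFNg and NS library and Ptprc reached no more than 0.526 CPM in any library. The sum over 8 leukocyte markers ran from 1.64 to 52.6 CPM with IFNb, from 2.58 to 61.1 CPM with IFNg and from 1.60 to 53.5 CPM in NS libraries. Of those 8 markers 3 were tested, and on the mean of lines Cd68 rose with IFNg (0.36). By line Cd68 rose in B16.1 with IFNb (1.56) and IFNg (3.40), and fell in LLC with IFNb (-0.96) and in Panc02.3 with IFNg (-0.63). Among 7 endothelial and fibroblast markers, 6 of them tested, Col1a1 (-1.16) and Pdgfrb (-1.04) fell with IFNg on the mean of lines. In Panc02.3 with IFNg, where most nuclear subunits fell, Col1a1 (-5.12), Pdgfrb (-2.75) and Pdgfra (-1.53) fell. In LLC with IFNb Col1a1 (-1.01), Pdgfra (-1.13) and Dcn (-2.13) fell, while Cdh5 rose (3.20). In B16.1 Col1a1 rose with IFNb (1.04) and IFNg (0.98), Pdgfra rose with IFNb (1.32), and Pdgfrb fell with IFNg (-0.86). The sum over these 7 ran from 9.68 to 762 CPM with IFNb, from 6.18 to 674 CPM with IFNg and from 9.87 to 804 CPM in NS libraries. Cdh5 was at 0 in 11 IFNb, 11 IFNg and 10 NS libraries and reached 23.7 CPM with IFNb. The part of these markers in the results was not tested. In these bulk samples fewer mitochondria per cell, fewer cells of a kind and less RNA per gene cannot be told apart.

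In NS cells the mitochondrially encoded mRNAs differed widely in level when set per kilobase of transcript. The median over the 8 lines was 5029 CPM per kb for mt-Co1, the catalytic core of complex IV, 4714 for mt-Atp6, 3884 for mt-Co2, 3388 for mt-Co3 and 2494 for mt-Cytb, the cytochrome b of complex III. The lowest were mt-Nd6, the 1 protein-coding gene on the light strand, at 706 CPM per kb and mt-Nd3 at 673 CPM per kb. Some of these genes share bases (43 between mt-Atp8 and mt-Atp6, 7 between mt-Nd4l and mt-Nd4, and 14 between mt-Nd5 and mt-Nd6 on opposite strands), so reads there could be split between neighbours.

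The lines themselves differed in nearly every member before any interferon. All 79 nuclear and all 13 mitochondrially encoded members tested differed between the 8 lines in NS libraries, where 96.5% of all genes tested did. Sdhb, the iron-sulfur subunit of complex II, had 332, 351 and 332 CPM in B16.1 NS libraries, against a highest value of 115 CPM in the other 7 lines, a departure of 1.93 ± 0.05 (adjusted p = 7.6e-42) from their mean. The B16.1 libraries thus stood above every other line, without overlap. Atp5a1, the alpha subunit of ATP synthase, lay lowest in CT26.2 (-1.27 ± 0.05 (adjusted p = 1.6e-32)), Uqcrh, the hinge protein of complex III, in Renca (-1.75 ± 0.08 (adjusted p = 1.8e-27)), and mt-Nd1, a core subunit of complex I, in Panc02.3 (-1.10 ± 0.12 (adjusted p = 1.8e-12)). mt-Nd3 was lowest in B16.1 (-1.78 ± 0.18 (adjusted p = 3.4e-13)). Sdha, the flavoprotein of complex II, departed upward in LLC (0.68 ± 0.04 (adjusted p = 9.5e-23)), and Atp5mpl, a small proteolipid bound to ATP synthase, in Panc02.3 (0.90 ± 0.05 (adjusted p = 8.7e-23)).

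Summed over members, the nuclear set was steady between replicates and the mitochondrial set was not. The pooled SD between libraries of a group was 0.055 log2 units for the nuclear sum and 0.178 for the mitochondrial sum. In B16.1 the nuclear sum was 10899 ± 29.1 CPM with IFNb and 12191 ± 541 CPM with IFNg, against 13670 ± 253 CPM in NS libraries (SD, n = 3 each), while the mitochondrial sum was 23166 ± 2678 CPM with IFNb and 29285 ± 731 CPM with IFNg, against 19219 ± 1789 CPM in NS libraries. In this line the nuclear sum was thus lower and the mitochondrial sum higher with either interferon. Most of the higher mitochondrial sum came from mt-Co1 alone, with either interferon. Most single mitochondrially encoded members were not called with IFNb, and 3 fell with IFNg. The log2 ratio of the mitochondrial to the nuclear sum averaged 1.08 with IFNb and 1.26 with IFNg, against 0.49 in NS libraries. In Panc02.3 both sums were lower with IFNg, the nuclear sum at 7957 ± 760 CPM with IFNg against 10481 ± 147 CPM in NS libraries, and the mitochondrial sum at 15150 ± 1758 CPM against 21086 ± 4623 CPM. The mitochondrial NS values of this line were spread over 15816, 22990.1 and 24453 CPM, and the lowest of them overlapped the IFNg libraries. In Renca the mitochondrial sum was 23321 ± 2288 CPM with IFNg (n = 3) against 38144 ± 9049 CPM in 2 NS libraries that held 44543 and 31746 CPM, and the nuclear sum was 8294 ± 914 CPM with IFNg against 8162 CPM.

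**Figure D1:**
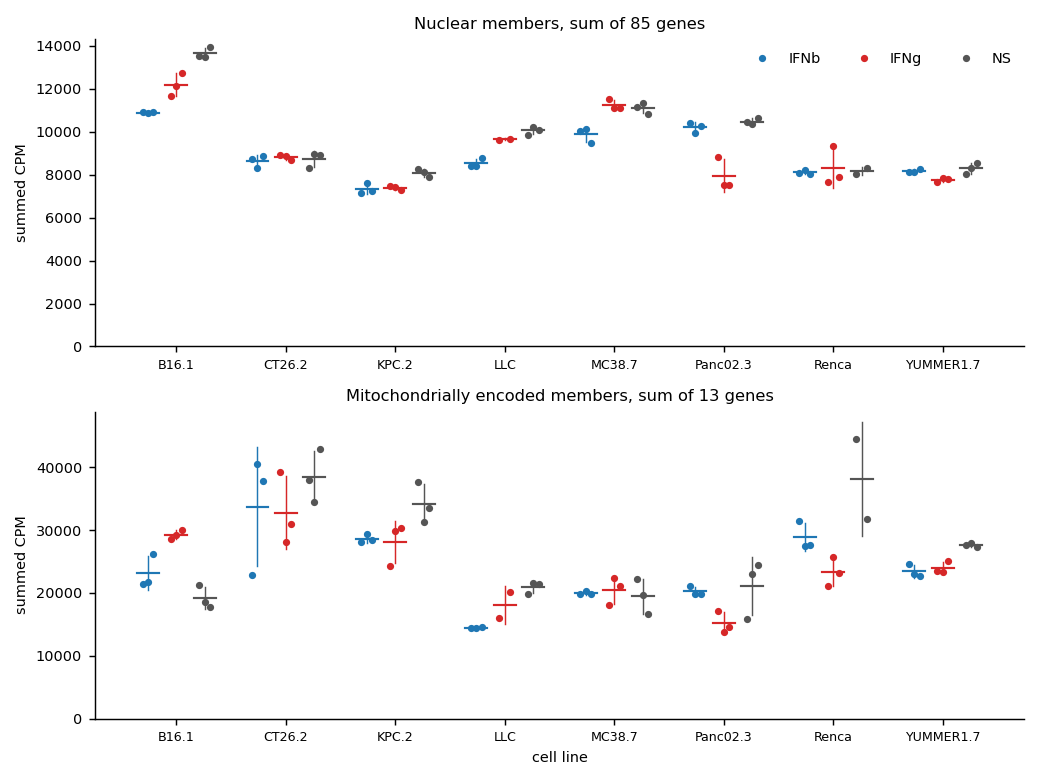
Summed CPM of nuclear (upper row) and mitochondrially encoded (lower row) members in each line, with IFNb, IFNg and NS libraries from left to right. Points are libraries, horizontal lines are means and vertical lines are SDs. The B16.1 nuclear sums of 10899 CPM with IFNb and 12191 CPM with IFNg lie under the NS sum of 13670 CPM, while its mitochondrial sums of 23166 and 29285 CPM lie above the NS sum of 19219 CPM. Most of that mitochondrial difference comes from mt-Co1.

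With IFNb the nuclear members fell together in 3 lines, B16.1, LLC and MC38.7, by small amounts per gene. In B16.1 none rose and 66 of 79 fell, with a median log2 fold change of -0.35, where 14.6% of all genes rose and 14.3% fell. In LLC 2 rose and 42 fell (median -0.21) against 17.6% and 21.0% of all genes, and in MC38.7 none rose and 37 fell (median -0.18) against 13.8% and 16.8%. In KPC.2 none rose and 5 fell (2.52% and 1.93% of all genes), in Renca 2 rose and 3 fell (7.10% and 6.82%), and in CT26.2 1 rose and 1 fell (1.97% and 0.929%). In Panc02.3 none rose and Cox7a2l fell (3.33% and 2.82% of all genes), and in YUMMER1.7 none rose and Ndufa4 fell (0.384% and 0.972%). On the mean of lines none rose and 58 of 79 fell (median -0.13), where 13% of all genes rose and 17.3% fell. Over 7 lines, with YUMMER1.7 left out because its IFNb libraries lacked most of the interferon response, 57 of 79 fell (median -0.12), where 15.2% of all 15910 genes then tested rose and 15.3% fell. Every complex took part on the mean of 8 lines: 24 of 35 tested nuclear subunits of complex I fell, 3 of 4 of complex II, 4 of 8 of complex III, 11 of 15 of complex IV and 16 of 17 of complex V. The medians of all genes tested lay between -0.07 and 0.02 in the contrasts with NS. Some counts rested on single libraries. Over both genomes, the 40 members called in MC38.7 became 22 without NS replicate 2, 24 without NS replicate 1 and 25 without IFNb replicate 3. The 6 called in KPC.2 became 0 without NS replicate 1, 1 without IFNb replicate 1 and 2 without IFNb replicate 3, and the 11 called in Renca became 3 without NS replicate 2. The 4 called in Panc02.3 became 2 without NS replicate 3, the 2 in CT26.2 became 1 without IFNb replicate 3 or NS replicate 1, and the 1 in YUMMER1.7 was lost without any 1 of its 6 libraries.

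Where a direction is given as 0 or none, edgeR also counted 0 members at an unadjusted p under 0.05 and DESeq2 and limma-voom called 0, with these exceptions. At an unadjusted p under 0.05 edgeR counted 3 nuclear rises with IFNb in Panc02.3, 4 mitochondrial falls with IFNb in CT26.2 and 5 in YUMMER1.7, 1 mitochondrial fall with IFNg in LLC, and 1 nuclear rise and 1 nuclear fall with IFNg in MC38.7. DESeq2 called 1 nuclear rise on the IFNb mean of lines, as did limma-voom, and 1 nuclear rise and 1 nuclear fall with IFNg in MC38.7, where limma-voom called 1 rise. In the direct comparison of the interferons, edgeR counted 2 mitochondrial falls at an unadjusted p under 0.05 in MC38.7, both called by DESeq2, and 1 on the mean of lines.

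The members with the largest falls on the IFNb mean of lines, among those above 3 counts in each IFNb and NS group, were Cox7a1, Ndufv3, Uqcrh, Atp5k and Atp5g2. Ndufv3, an accessory subunit of the NADH-oxidising module of complex I, had 28.1, 25.9 and 28.7 CPM with IFNb, 52.6 and 53.0 CPM with IFNg, and 56.6, 57.9 and 53.0 CPM in NS libraries of LLC. The 3 IFNb libraries lay below all others, which overlapped each other. Its fold change in LLC was -1.01 ± 0.12 (adjusted p = 9.9e-11), and it fell with IFNb also in B16.1 (-0.75 ± 0.12), MC38.7 (-0.46 ± 0.14) and Renca (-0.84 ± 0.12), with -0.48 ± 0.04 (adjusted p = 2.7e-13) on the mean of lines. Uqcrh had 37.7, 37.3 and 37.8 CPM with IFNb, 63.5 and 67.7 CPM with IFNg, and 89.3, 91.3 and 95.9 CPM in NS libraries of LLC. The 3 treatments did not overlap, with IFNb lowest and NS highest. Uqcrh fell by more with IFNb in LLC (-1.29 ± 0.08 (adjusted p = 9.8e-22)) than in the other 7 lines, with a difference of -1.05 ± 0.08 (adjusted p = 3.9e-16) from their mean, and its mean of lines was -0.37 ± 0.03 (adjusted p = 1.8e-16). Atp5k, the membrane subunit e of ATP synthase, fell in LLC (-0.85 ± 0.09 (adjusted p = 2.3e-11)) and B16.1 (-0.72 ± 0.10 (adjusted p = 5.2e-08)). Its values of 23.1, 24.2 and 27.0 CPM in LLC IFNb libraries lay below the 45.8, 43.7 and 45.3 CPM of LLC NS libraries. Atp5g2, 1 of 3 genes that encode the same mature subunit c, was low in most libraries and fell in MC38.7 (-0.57 ± 0.20 (adjusted p = 0.023)). Its mean of lines (-0.29 ± 0.10 (adjusted p = 0.021)) did not pass without CT26.2 IFNb replicate 1 or KPC.2 IFNb replicate 2.

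Some members fell in more lines than others. Cox7a2l, a factor that joins complexes III and IV into supercomplexes and of which C57BL/6 mice carry a shorter allele, fell with IFNb in 5 lines (B16.1, LLC, MC38.7, Panc02.3 and Renca), with -0.22 ± 0.02 (adjusted p = 6.3e-12) on the mean of lines. In Renca it had 103, 109 and 97.0 CPM with IFNb, 114, 131 and 114 CPM with IFNg, and 126 and 126 CPM in NS libraries, so the IFNb libraries alone lay apart. Ndufa4, a subunit of complex IV despite its name, fell in 4 lines. Cox8a, a small subunit of complex IV, fell in B16.1 (-0.63 ± 0.07 (adjusted p = 9.6e-12)), where it had 125, 136 and 128 CPM with IFNb, 148, 149 and 168 CPM with IFNg, and 191, 199.5 and 211 CPM in NS libraries. The IFNb libraries were lowest and the NS libraries highest, without overlap. The rises were few: Uqcrq, a small complex III subunit that sits near the coenzyme Q site, rose in LLC (0.42 ± 0.11 (adjusted p = 0.0017)), Ndufb8, an accessory subunit of the complex I membrane arm, in CT26.2 (0.35 ± 0.07 (adjusted p = 5.4e-04)), and Atp5g3 (0.20 ± 0.07) and Atp5b (0.19 ± 0.05) in Renca. Cox6a2, which also rose in LLC, is described with the isoforms. Ndufb8 in CT26.2 had 108, 109 and 113 CPM with IFNb, 106, 102 and 104 CPM with IFNg, and 83.5, 91.0 and 83.5 CPM in NS libraries, and both interferon groups lay above the NS group. In KPC.2 the largest falls were Cox6a1 (-0.36 ± 0.11 (adjusted p = 0.033)) and Uqcrh (-0.34 ± 0.09 (adjusted p = 0.012)), and in CT26.2 the 1 fall was Uqcrc2 (-0.20 ± 0.05 (adjusted p = 0.016)).

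With IFNb the mitochondrially encoded members fell in LLC beside the nuclear ones but not in B16.1. In B16.1, where 66 nuclear members fell, 1 of 13 rose (mt-Co1) and none fell (median 0.10). In LLC 10 of 13 fell (median -0.75, against -0.21 for the nuclear members), and in Renca 6 fell (median -0.35), in Panc02.3 3 fell (median -0.11) and in KPC.2 1 fell (median -0.30). In MC38.7 2 rose, mt-Co1 and mt-Co3, and mt-Nd4l fell (median -0.12). In CT26.2 (median -0.23) and YUMMER1.7 (median -0.24) none was called. The 6 Renca falls were all lost without NS replicate 2, the higher of 2 NS libraries. On the mean of lines 11 of 13 fell (median -0.29), all but mt-Co1 (0.06 ± 0.05 (adjusted p = 0.48)) and mt-Co2 (-0.10 ± 0.07 (adjusted p = 0.29)). Without that Renca library 10 fell, mt-Atp6 no longer passing, and likewise over the 7 lines without YUMMER1.7 (mt-Atp6 at -0.15). The departure of a line from the other 7 was called for mt-Co1 in B16.1, at 0.77 ± 0.16 (adjusted p = 1.6e-04).

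In LLC the mRNAs of complexes I, III and V fell with IFNb and those of complex IV were not called. mt-Cytb had 934, 949 and 962 CPM with IFNb, 1557 and 2017 CPM with IFNg, and 1988, 2245 and 2251 CPM in NS libraries of LLC. The 3 IFNb libraries lay well below the rest, the IFNg libraries overlapped the NS libraries, and the IFNb fold change was -1.19 ± 0.16 (adjusted p = 5.2e-09). All 7 complex I genes fell, from -1.13 ± 0.20 (adjusted p = 3.5e-06) for mt-Nd3 and -1.01 ± 0.14 (adjusted p = 2.5e-08) for mt-Nd1 to -0.71 ± 0.12 (adjusted p = 3.4e-06) for mt-Nd5, with -0.91 ± 0.13 for mt-Nd2, -0.84 ± 0.16 for mt-Nd4, -0.96 ± 0.14 for mt-Nd4l and -0.75 ± 0.17 for mt-Nd6. The ATP synthase genes mt-Atp8 (-0.68 ± 0.11) and mt-Atp6 (-0.53 ± 0.16) fell by less. mt-Co1 (-0.24 ± 0.15 (adjusted p = 0.21)), mt-Co2 (-0.36 ± 0.18 (adjusted p = 0.13)) and mt-Co3 (-0.19 ± 0.10 (adjusted p = 0.12)) had negative values that did not pass. Whether the complex IV genes differ from the others was not tested. In Renca mt-Cytb had 2347, 2033 and 2063 CPM with IFNb, 1428, 2035 and 1707 CPM with IFNg, and 4661 and 3198 CPM in NS libraries, with both interferon groups below both NS libraries, and fold changes of -0.87 ± 0.17 (adjusted p = 9.6e-05) with IFNb and -1.19 ± 0.17 (adjusted p = 2.1e-07) with IFNg.

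With IFNg the nuclear members fell most often in Panc02.3, where 53 of 79 fell, and falls outnumbered rises also in B16.1, KPC.2, YUMMER1.7, LLC and Renca. In Panc02.3 3 rose beside these falls (median -0.40), where 23.2% of all genes rose and 31.6% fell. In B16.1 9 rose and 26 fell (median -0.06) against 27.6% and 26.5% of all genes, a share of falls near the background. In KPC.2 2 rose and 22 fell (median -0.14; 13.8% and 15.8% of all genes), and in YUMMER1.7 2 rose and 16 fell (median -0.12; 9.79% and 11%). In LLC 2 rose and 8 fell (6.65% and 4.60% of all genes), in Renca 1 rose and 5 fell (6.04% and 5.16%) and in CT26.2 3 rose and 1 fell (4.97% and 3.86%). In MC38.7 no nuclear member was called in either direction, where 3.89% of all genes rose and 0.886% fell. Over the mean of lines 4 rose and 42 of 79 fell (median -0.09), where 18.3% of all genes rose and 23.7% fell, and over 7 lines without YUMMER1.7 4 rose and 43 fell (19.2% and 22.9% of all genes). With library totals in place of TMM scaling the median of all genes in KPC.2 moved to -0.13, and 1 nuclear member rose and 45 fell there, with 11 of 13 mitochondrial falls in place of 5. Over both genomes the 29 members called in KPC.2 became 16 without NS replicate 1, and the 18 called in Renca became 5 without NS replicate 2. The 10 called in LLC became 5 without IFNg replicate 1, IFNg replicate 3 or NS replicate 1, and the 6 in CT26.2 became 3 without IFNg replicate 3 or NS replicate 1.

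**Figure D2:**
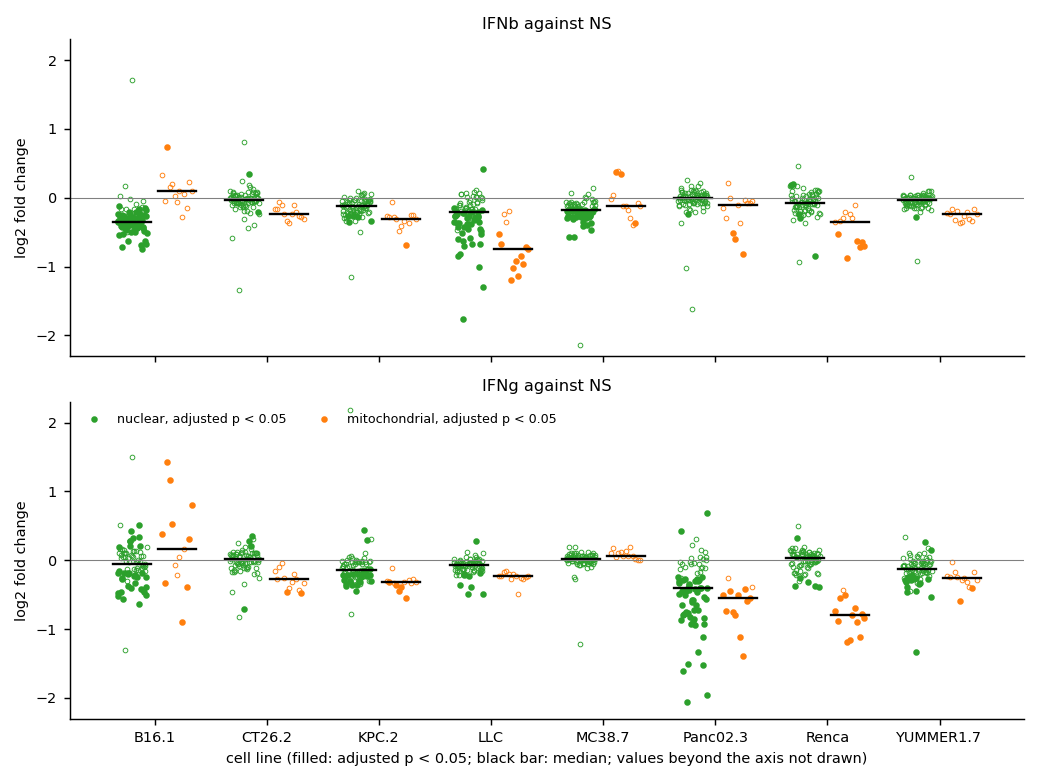
Log2 fold change of each tested member in each line with IFNb (upper panel) and IFNg (lower panel) against NS, mitochondrially encoded and nuclear members side by side. Filled points had an adjusted p below 0.05, black bars are medians, and values beyond ±2.3 are not drawn. The nuclear medians are lowest in B16.1 with IFNb (-0.35) and in Panc02.3 with IFNg (-0.40), the mitochondrial medians in LLC with IFNb (-0.75) and in Renca with IFNg (-0.80).

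In Panc02.3 complex II stood lowest with IFNg: all 4 subunits fell, with a median of -0.89. Sdha had 226, 240.4 and 237 CPM with IFNb, 111, 126 and 122 CPM with IFNg, and 251, 259.7 and 264 CPM in NS libraries. The IFNg libraries lay below every other library of the line, and the fold change was -1.11 ± 0.06 (adjusted p = 5.8e-23). Sdhc, 1 of the membrane anchors, changed by -0.93 ± 0.07 (adjusted p = 6.8e-18) and Sdhb by -0.54 ± 0.09 (adjusted p = 4.1e-07). In complex I 22 of 35 nuclear subunits fell and none rose (median -0.30), led by Ndufv3 (-1.52 ± 0.14 (adjusted p = 3.2e-14)), Ndufb9 (-1.33 ± 0.08 (adjusted p = 3.5e-21)) and Ndufa13 (-0.93 ± 0.12 (adjusted p = 2.7e-09)), which was first described as a gene of interferon and retinoid induced cell death. Ndufb9, an accessory subunit of the membrane arm, had 163, 160.2 and 159 CPM with IFNb, 69.7, 51.8 and 67.6 CPM with IFNg, and 159, 155 and 166 CPM in NS libraries, the IFNg values below the rest without overlap. The core subunit Ndufs1 did not pass in this line (-0.05 ± 0.05 (adjusted p = 0.41)).

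In Panc02.3 with IFNg 3 of 8 nuclear subunits of complex III fell and 1 rose (median -0.05), a share of falls near that of all genes. The counts given here for complexes III to V are to be read against 31.6% of all genes falling and 23.2% rising. Uqcrh had 104, 98.5 and 96.3 CPM with IFNb, 30.7, 19.7 and 22.8 CPM with IFNg, and 93.5, 102 and 99.9 CPM in NS libraries, a fall of -1.96 ± 0.10 (adjusted p = 8.9e-25) with the IFNg libraries far below the others, and this exceeded the mean of the other 7 lines by -1.61 ± 0.11 (adjusted p = 9.4e-20). Uqcrq had 140.4, 112 and 124 CPM with IFNb, 264, 193 and 192 CPM with IFNg, and 143, 127 and 138 CPM in NS libraries, a rise of 0.68 ± 0.11 (adjusted p = 2.3e-07) with all IFNg libraries above all others. These 2 subunits of 1 complex thus went opposite ways in the same cells. In complex IV 12 of 15 tested nuclear subunits fell and Cox6a2 rose (median -0.44). Cox7a2 had 97.8, 81.8 and 84.0 CPM with IFNb, 34.7, 25.0 and 25.7 CPM with IFNg, and 84.2, 86.1 and 81.3 CPM in NS libraries, with -1.51 ± 0.09 (adjusted p = 1.2e-22) for IFNg and a difference from the other 7 lines of -1.49 ± 0.09 (adjusted p = 3.3e-21). The IFNg libraries did not overlap the rest. Cox6b1 (-0.75 ± 0.08), Cox7a2l (-0.76 ± 0.07), Cox4i1 (-0.50 ± 0.07) and Cox8a (-0.43 ± 0.07) fell by less. In complex V 12 of 17 fell and 1 rose (median -0.33). Atp5k had 59.2, 49.1 and 53.3 CPM with IFNb, 19.3, 14.4 and 16.2 CPM with IFNg, and 52.4, 52.6 and 51.2 CPM in NS libraries, a fall of -1.61 ± 0.13 (adjusted p = 1.1e-16), again with the IFNg libraries apart.

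**Figure D3:**
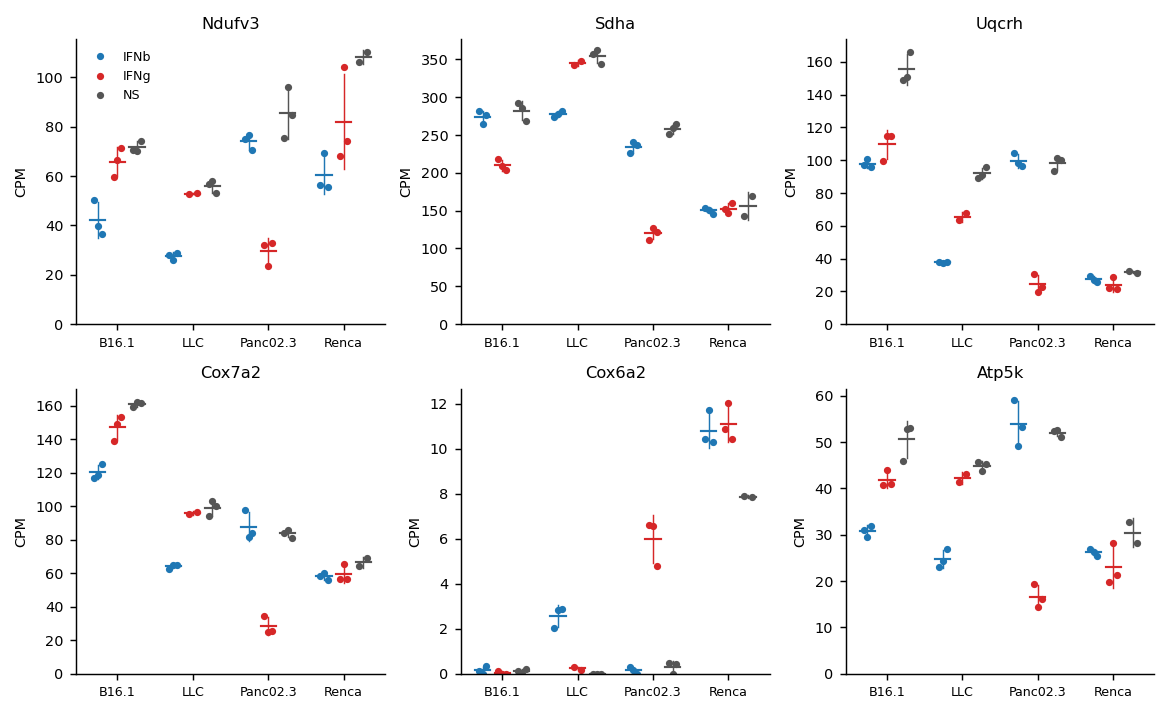
CPM of Ndufv3, Sdha, Uqcrh, Cox7a2, Cox6a2 and Atp5k in B16.1, LLC, Panc02.3 and Renca, with IFNb, IFNg and NS libraries from left to right. Points are libraries, horizontal lines means and vertical lines SDs. In Panc02.3 the IFNg libraries are lowest for every gene shown but Cox6a2, where they are highest, and in LLC the IFNb libraries are lowest for Uqcrh, Cox7a2, Ndufv3 and Atp5k.

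In B16.1 with IFNg 8 of 35 nuclear complex I subunits rose and 8 fell, shares no higher than the 27.6% and 26.5% of all genes, and single subunits went opposite ways. Ndufs3, a core subunit, had 78.6, 75.0 and 82.7 CPM with IFNb, 121, 126 and 133 CPM with IFNg, and 84.7, 87.7 and 94.7 CPM in NS libraries, and the IFNg libraries lay above all others (0.51 ± 0.07 (adjusted p = 3.2e-09)). Ndufs1, the largest core subunit of the same arm, had 346, 337 and 338 CPM with IFNb, 254, 249.6 and 236 CPM with IFNg, and 386, 378 and 384 CPM in NS libraries, and the IFNg libraries lay below all others (-0.63 ± 0.05 (adjusted p = 2.7e-18)). Ndufa3 rose (0.43 ± 0.08 (adjusted p = 4.0e-06)) and Atp5mpl fell (-0.57 ± 0.07 (adjusted p = 2.4e-10)). Ndufs4, an accessory subunit whose loss impairs complex I, rose with IFNg in 5 lines (B16.1, CT26.2, KPC.2, LLC and YUMMER1.7), with 0.19 ± 0.03 (adjusted p = 3.8e-07) on the mean of lines. In KPC.2 it had 40.4, 42.6 and 35.1 CPM with IFNb, 50.7, 56.2 and 52.8 CPM with IFNg, and 37.3, 42.7 and 36.8 CPM in NS libraries, with the IFNg libraries above the rest. KPC.2 also had falls of Atp5j2, a membrane subunit of ATP synthase (-0.38 ± 0.09 (adjusted p = 5.8e-04)), and a rise of Ndufv3 (0.30 ± 0.12 (adjusted p = 0.044)), opposite to its fall in Panc02.3 and Renca (-0.38 ± 0.11 (adjusted p = 0.019)). Renca had 1 rise, Cox5a of complex IV (0.32 ± 0.08 (adjusted p = 0.0061)), and YUMMER1.7 a rise of Uqcrc2, a core protein of complex III (0.15 ± 0.05 (adjusted p = 0.026)). In CT26.2 Ndufb8 rose as with IFNb (0.28 ± 0.07 (adjusted p = 0.0041)).

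Uqcrh fell with IFNg in 6 lines, all but CT26.2 (-0.26 ± 0.09 (adjusted p = 0.058)) and MC38.7 (0.02 ± 0.07 (adjusted p = 0.99)), with -0.55 ± 0.03 (adjusted p = 1.0e-23) on the mean of lines. In YUMMER1.7 it had 114, 113 and 106 CPM with IFNb, 89.8, 82.9 and 86.9 CPM with IFNg, and 120.0, 125 and 130.2 CPM in NS libraries, and the IFNg libraries were below the others. Atp5k fell in 5 lines, with -0.40 ± 0.04 (adjusted p = 1.1e-13) on the mean of lines. Ndufb2, an accessory subunit of complex I, also fell in 5.

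The mitochondrially encoded mRNAs fell with IFNg in Panc02.3 and Renca and rose in part in B16.1. In Renca none rose and 12 of 13 fell (median -0.80) although the nuclear median was 0.03, in Panc02.3 none rose and 11 fell (median -0.55), and in KPC.2 none rose and 5 fell (median -0.32). Without NS replicate 2, 5 fell in Renca. In CT26.2 and YUMMER1.7 none rose and 2 fell (medians -0.27 and -0.26), and in LLC (median -0.23) and MC38.7 (median 0.06) none was called. On the mean of lines none rose and 11 fell (median -0.29), and mt-Co1 (0.03 ± 0.05 (adjusted p = 0.77)) and mt-Co2 (-0.04 ± 0.07 (adjusted p = 0.8)) again did not pass. In Renca the falls ran from mt-Cytb, given above, and mt-Nd1 (-1.16 ± 0.15 (adjusted p = 3.9e-08)) to mt-Co3 (-0.50 ± 0.11 (adjusted p = 6.9e-04)). mt-Nd1 departed from the mean of the other 7 lines by -0.89 ± 0.16 (adjusted p = 3.8e-05). mt-Nd4l in Renca had 194, 187 and 179.8 CPM with IFNb, 141, 140.4 and 147 CPM with IFNg, and 354 and 262 CPM in NS libraries, with the 3 groups apart and IFNg lowest. In Panc02.3 mt-Nd3 fell the most, with 118, 111 and 135 CPM with IFNb, 78.1, 89.6 and 76.5 CPM with IFNg, and 231, 179.6 and 225 CPM in NS libraries and both interferon groups below all NS libraries (-0.82 ± 0.21 (adjusted p = 0.0064) with IFNb, -1.39 ± 0.23 (adjusted p = 6.1e-07) with IFNg). mt-Cytb fell with IFNg in 5 lines (CT26.2, KPC.2, Panc02.3, Renca and YUMMER1.7), with -0.47 ± 0.06 (adjusted p = 2.2e-10) on the mean of lines.

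B16.1 was the line where mitochondrially encoded mRNAs rose: 6 of 13 rose with IFNg and 3 fell (median 0.17). mt-Co1 had 6349, 6656 and 7924 CPM with IFNb, 11052, 11232 and 11413 CPM with IFNg, and 4664, 4054 and 3853 CPM in NS libraries, with the 3 groups apart, NS lowest and IFNg highest. Its fold change was 1.42 ± 0.15 (adjusted p = 1.9e-12) with IFNg, and it departed from the other 7 lines by 1.59 ± 0.16 (adjusted p = 6.8e-13). mt-Co2 had 1248, 1026 and 1403 CPM with IFNb, 2225, 2621 and 2505 CPM with IFNg, and 1043, 1038 and 1209 CPM in NS libraries, so that the IFNg libraries alone stood apart (1.16 ± 0.19 (adjusted p = 3.5e-07)). mt-Nd6, on the other strand, had 339, 353 and 441 CPM with IFNb, 579, 627 and 637 CPM with IFNg, and 406, 343 and 307 CPM in NS libraries and rose too (0.81 ± 0.17 (adjusted p = 4.2e-05)), as did mt-Co3 (0.52 ± 0.10), mt-Atp6 (0.38 ± 0.16) and mt-Nd5 (0.31 ± 0.12). The falls were mt-Nd3 (-0.90 ± 0.24 (adjusted p = 0.0011)), mt-Nd4l (-0.38 ± 0.15 (adjusted p = 0.024)) and mt-Atp8 (-0.34 ± 0.11 (adjusted p = 0.0068)), the shortest genes of the mitochondrial set. mt-Atp8 shares 43 bases with mt-Atp6, which rose, and mt-Nd4l shares 7 with mt-Nd4. Their values are thus not those of separate stretches of RNA, and the part of read assignment in them was not tested. mt-Cytb (-0.07 ± 0.15 (adjusted p = 0.76)), mt-Nd1 (-0.22 ± 0.14 (adjusted p = 0.2)), mt-Nd2 (0.05 ± 0.13 (adjusted p = 0.82)) and mt-Nd4 (0.17 ± 0.16 (adjusted p = 0.41)) did not pass. All 3 complex IV genes of mitochondrial DNA thus rose in this line, where 4 of 15 tested nuclear subunits of complex IV fell, a share like the 26.5% of all genes.

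**Figure D4:**
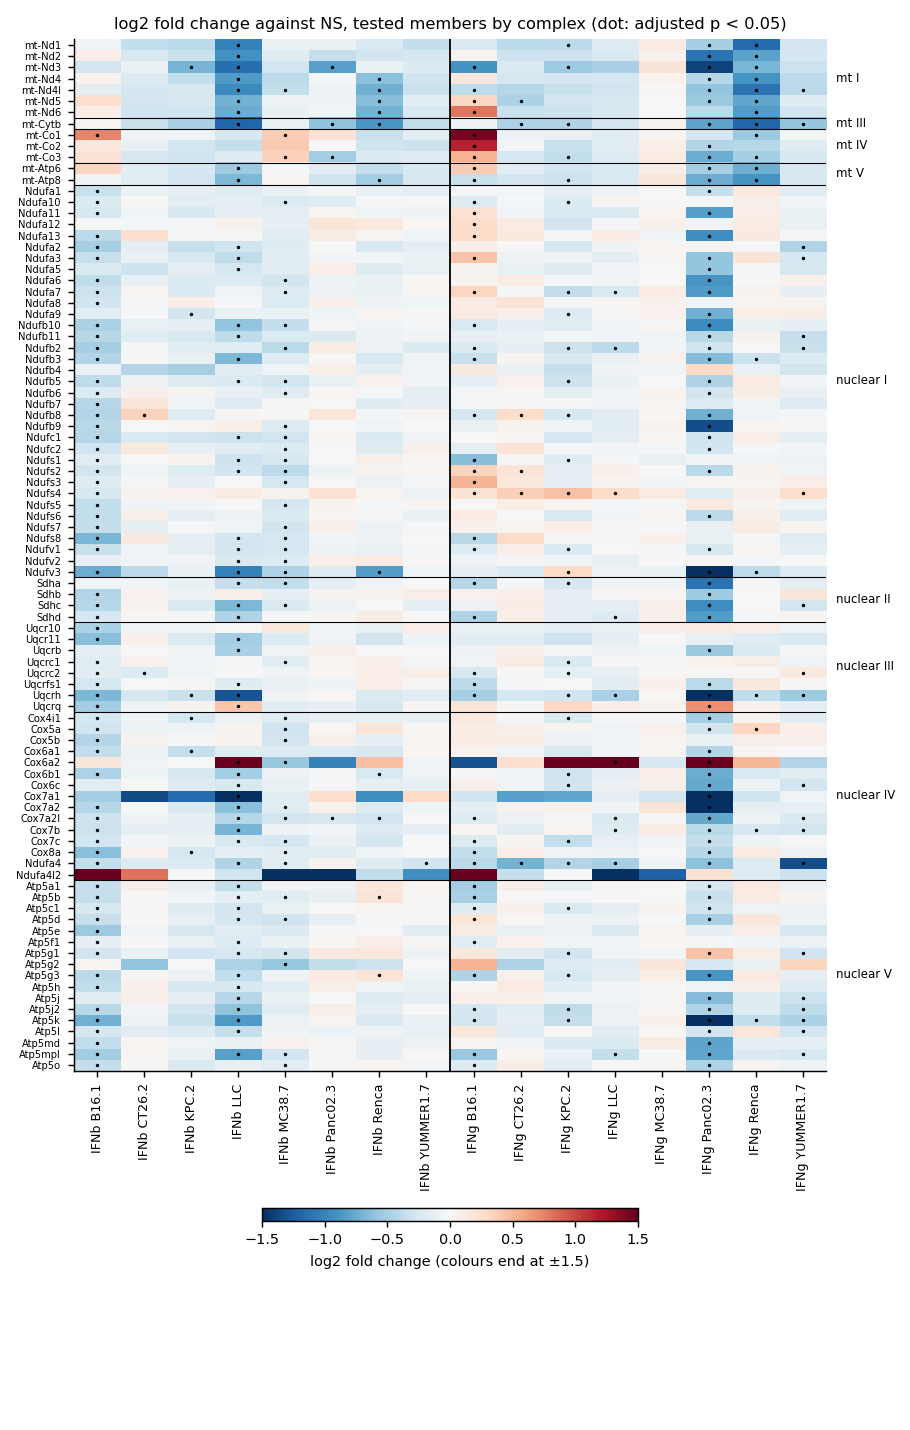
Heat map of log2 fold changes of the tested members (rows, grouped by complex and by genome) in each line with IFNb and with IFNg against NS (columns). Blue marks falls and red marks rises. The mitochondrial rows are blue in LLC with IFNb and in Renca with IFNg, while mt-Co1 (1.42) and mt-Co2 (1.16) are red in B16.1 with IFNg, and the nuclear rows are mostly blue in B16.1 with IFNb and in Panc02.3 with IFNg.

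Ndufa4 fell with IFNg in 6 lines, all but MC38.7 and Renca, and its paralog rose in 7. Ndufa4 lies on chromosome 6 at chr6:11900292-11907497 (minus strand, GRCm38.p6 in RefSeq) and its product is now counted as a subunit of complex IV. The paralog, AA467197, is the mouse gene for NMES1 (human C15orf48), which can take the place of Ndufa4 in complex IV. It lies at chr2:122636986-122641191 (plus strand), and the hairpin of the microRNA Mir147 lies within it at chr2:122640803-122640881. The microRNA was not measured. In YUMMER1.7 Ndufa4 had 40.7, 40.2 and 42.7 CPM with IFNb, 19.0, 20.1 and 20.8 CPM with IFNg, and 47.8, 53.0 and 50.1 CPM in NS libraries. All IFNg values were below all others, with a fold change of -1.33 ± 0.09 (adjusted p = 3.5e-19) that departed from the other 7 lines by -0.91 ± 0.09 (adjusted p = 8.7e-12). Averaged over lines, Ndufa4 changed by -0.23 ± 0.02 (adjusted p = 3.6e-11) with IFNb and -0.53 ± 0.03 (adjusted p = 3.7e-26) with IFNg.

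AA467197 had 1.42, 1.64 and 2.64 CPM with IFNb, 142, 102 and 106 CPM with IFNg, and 1.19, 0.661 and 0.498 CPM in NS libraries of Panc02.3, an increase of 7.27 ± 0.21 (adjusted p = 3.8e-36) with IFNg with no overlap. In the same cells Ndufa4 had 167, 145 and 165 CPM with IFNb, 115, 95.2 and 86.7 CPM with IFNg, and 154, 153 and 152 CPM in NS libraries (-0.61 ± 0.07 (adjusted p = 7.7e-11) with IFNg). AA467197 rose by 3.62 ± 0.15 (adjusted p = 2.8e-29) with IFNg and 0.79 ± 0.26 (adjusted p = 0.016) with IFNb on the mean of lines. The IFNg rises ran from 1.32 ± 0.10 (adjusted p = 2.7e-16) in YUMMER1.7, which already had 78.3, 81.5 and 73.9 CPM in NS libraries, through CT26.2 (2.33 ± 0.14), MC38.7 (2.41 ± 0.17), LLC (3.64 ± 0.20) and KPC.2 (3.77 ± 0.41) to B16.1 (6.34 ± 0.40) and Panc02.3. In Renca it stayed under 1 CPM in every library (1.91 ± 0.77 (adjusted p = 0.11)), and Ndufa4 did not pass there either (-0.21 ± 0.07 (adjusted p = 0.056)). With IFNb AA467197 rose only in LLC (2.90 ± 0.21 (adjusted p = 9.7e-18)) and MC38.7 (1.49 ± 0.20 (adjusted p = 3.2e-08)), fewer lines than those where Ndufa4 fell. In YUMMER1.7 Ndufa4 was called as fallen with IFNb, a call lost without any 1 library. AA467197 did not pass there (-0.26 ± 0.11 (adjusted p = 0.33)). MC38.7 with IFNg was the 1 combination where AA467197 rose and Ndufa4 did not pass: Ndufa4 had 145, 152 and 134 CPM with IFNb, 162, 155 and 153 CPM with IFNg, and 164, 169 and 158 CPM in NS libraries, which overlapped between IFNg and NS (-0.07 ± 0.06 (adjusted p = 0.74)).

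The tissue-restricted isoforms were low in most lines, and some of them rose or fell with interferon. Cox6a2, on chromosome 7 at chr7:128205435-128206387 (minus strand), is the isoform of heart and skeletal muscle that replaces the widely used Cox6a1. In NS libraries it was clearly present in CT26.2 (18.3, 20.7 and 17.9 CPM), MC38.7 (15.3 to 17.4 CPM) and Renca (7.91 and 7.85 CPM). It was near 1 CPM in YUMMER1.7 and near or at 0 in the other 4 lines. In LLC it had 2.02, 2.83 and 2.86 CPM with IFNb, 0.296 and 0.189 CPM with IFNg, and 0, 0 and 0 CPM in NS libraries. This is 98 counts with IFNb and 11 with IFNg against 0 in NS, at least 41.3-fold higher with IFNb and at least 3.90-fold higher with IFNg when 3 counts over the NS group are taken as the floor. In Panc02.3 it had 0.283, 0.182 and 0 CPM with IFNb, 6.63, 6.56 and 4.78 CPM with IFNg, and 0.475, 0 and 0.415 CPM in NS libraries, and rose with IFNg (4.13 ± 0.38 (adjusted p = 7.0e-14)) above every other library of the line. Cox6a1 had 157, 149 and 156 CPM with IFNb, 151, 111 and 125 CPM with IFNg, and 178, 179.7 and 175 CPM in NS libraries of Panc02.3, with the IFNg libraries lower than the NS ones (-0.44 ± 0.09 (adjusted p = 2.5e-05)). Cox6a1 thus stayed far above Cox6a2 in every library of this line. In MC38.7 Cox6a2 fell with IFNb (-0.57 ± 0.17 (adjusted p = 0.0064)).

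Cox7a1, the muscle counterpart of Cox7a2, was highest in KPC.2 NS libraries, at 4.31, 5.10 and 5.40 CPM (2.77 ± 0.29 (adjusted p = 9.3e-13) against the other lines), and at most 4.30 CPM in every library of the other lines. It fell in LLC with IFNb (-1.76 ± 0.64 (adjusted p = 0.022)) and in Panc02.3 with IFNg (-2.06 ± 0.67 (adjusted p = 0.0067)), and on the mean of lines with both (-0.66 ± 0.22 (adjusted p = 0.014) with IFNb and -0.59 ± 0.22 (adjusted p = 0.022) with IFNg). Without MC38.7 NS replicate 3 neither mean passed (-0.47 and -0.40), and without YUMMER1.7 NS replicate 1 the IFNg mean did not (-0.51). Ndufa4l2, a hypoxia-linked relative of Ndufa4, was at 0 in every KPC.2 library and at most 1.53 CPM anywhere. Among the 3 genes for subunit c, Atp5g1 and Atp5g3 went opposite ways in Panc02.3 with IFNg. Atp5g1 had 103, 91.2 and 103 CPM with IFNb, 143, 111 and 101 CPM with IFNg, and 92.3, 79.4 and 95.1 CPM in NS libraries (0.43 ± 0.09 (adjusted p = 7.7e-05)), with the IFNg libraries above the NS ones. Atp5g3 had 266, 267 and 288 CPM with IFNb, 148, 131 and 130.1 CPM with IFNg, and 244, 248 and 263 CPM in NS libraries (-0.87 ± 0.06 (adjusted p = 3.0e-18)), with the IFNg libraries lowest. Counting all 14 of 19 isoform and alternative-subunit genes that were tested, none rose and 12 fell on the IFNb mean of lines (DESeq2 and limma-voom called 1 rise each). On the IFNg mean 1 rose and 10 fell. Of all genes, 13% rose and 17.3% fell with IFNb on the mean of lines, and 18.3% rose and 23.7% fell with IFNg. The Cox and Atp5 isoforms in this list are nuclear members, so their calls were already counted above and are not a separate result. Many subunit genes have processed pseudogene copies, and reads shared with such copies could be split by the authors' counting.

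The promoters of 4 members whose mRNA fell with IFNg in Panc02.3 are shown because they carry the letters of factors known to drive respiratory genes in several combinations. They are RefSeq sequences of GRCm38.p6, 250 bases before to 50 bases after the start, all from genes on the minus strand and written 5′ to 3′ in the direction of the gene. Atp5k lies at chr5:108434350-108434649, Sdha at chr13:74350191-74350490, Uqcrh at chr4:116075021-116075320 and Cox6a1 at chr5:115348909-115349208. Capitals mark matches on either strand to the letters searched for NRF1 (GCGC, any base, then TGCGC), for ETS factors such as GABP (CCGGAAG) and for YY1 (AANATGG).
Atp5k: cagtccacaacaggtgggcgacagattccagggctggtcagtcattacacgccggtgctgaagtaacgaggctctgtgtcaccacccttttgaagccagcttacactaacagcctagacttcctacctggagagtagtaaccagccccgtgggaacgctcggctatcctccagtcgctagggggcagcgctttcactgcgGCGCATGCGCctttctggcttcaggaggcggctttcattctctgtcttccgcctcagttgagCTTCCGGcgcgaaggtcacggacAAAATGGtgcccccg
Sdha: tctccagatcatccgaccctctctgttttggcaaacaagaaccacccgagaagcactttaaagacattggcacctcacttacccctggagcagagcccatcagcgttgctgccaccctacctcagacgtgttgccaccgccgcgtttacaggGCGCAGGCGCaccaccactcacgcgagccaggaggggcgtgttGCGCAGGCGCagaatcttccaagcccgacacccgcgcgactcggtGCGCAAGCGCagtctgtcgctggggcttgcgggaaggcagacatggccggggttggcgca
Uqcrh: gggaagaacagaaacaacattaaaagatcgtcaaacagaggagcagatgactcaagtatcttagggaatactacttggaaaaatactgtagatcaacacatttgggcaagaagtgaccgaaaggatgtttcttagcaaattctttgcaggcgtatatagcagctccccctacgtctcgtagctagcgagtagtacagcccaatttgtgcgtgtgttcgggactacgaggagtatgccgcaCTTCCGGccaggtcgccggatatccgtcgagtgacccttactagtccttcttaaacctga
Cox6a1: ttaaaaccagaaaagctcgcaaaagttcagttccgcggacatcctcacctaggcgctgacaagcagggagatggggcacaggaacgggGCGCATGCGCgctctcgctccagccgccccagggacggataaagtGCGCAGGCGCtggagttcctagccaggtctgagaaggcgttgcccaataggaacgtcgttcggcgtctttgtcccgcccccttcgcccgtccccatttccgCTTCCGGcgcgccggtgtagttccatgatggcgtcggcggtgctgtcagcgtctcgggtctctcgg
The Sdha window holds 3 NRF1 matches, Cox6a1 2 NRF1 matches and 1 ETS match, Atp5k 1 match to each of the 3, and Uqcrh 1 ETS match. Of the 85 nuclear members 67 were matched to a promoter, and 41 of these held at least 1 of the 3. NRF1 letters stood in 23.9% of the 67 member promoters (16) and in 4.78% of all 27025 promoters of the same length, ETS letters in 23.9% and 9.12%, and YY1 letters in 23.9% and 16.3%. Letters of the interferon-linked GAS (TTCNNNGAA) stood in 5.97% of member promoters (4) and 8.47% of all, and those of the ISRE (GAAA, any 2 bases, then GAAA) in 2.99% (2) and 3.49%. In Panc02.3 with IFNg the median log2 fold change was -0.45 for the 16 tested members with NRF1 letters and -0.38 for the 48 without, a description only.

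Set directly against each other, IFNg left more nuclear members higher than IFNb in B16.1, LLC and MC38.7 and lower in Panc02.3. For IFNg minus IFNb, 51 of 79 nuclear members were higher and 5 lower in B16.1 (median 0.29; 26.0% and 24.5% of all genes), 27 and 5 in LLC (median 0.14; 16.8% and 12.5%), and 43 and none in MC38.7 (median 0.19; 17.8% and 10.5%). In Panc02.3 3 were higher and 51 lower (median -0.33; 22.6% and 30.4% of all genes). Few were called in CT26.2 (2 higher and 1 lower; 2.51% and 1.5% of all genes), KPC.2 (3 and 4; 10.9% and 9.18%), Renca (5 and 1; 5.25% and 4.19%) and YUMMER1.7 (1 and 6; 9.09% and 7.73%). Averaged over lines, 26 were higher and 10 lower (median 0.02; 18% and 18.7%), which turned to 11 higher and 20 lower with library totals in place of TMM scaling. Over 7 lines without YUMMER1.7, 25 were higher and 9 lower (17.5% and 19.9% of all genes), and 1 mitochondrially encoded member was lower. Of the mitochondrially encoded members 9 were higher with IFNg in LLC (median 0.51), 4 higher and 2 lower in B16.1, and 2 higher in MC38.7, where scaling with DESeq2 size factors gave 2 lower and none higher. In Panc02.3 10 were lower (median -0.44), in Renca 4 were lower (median -0.32), and on the mean of lines none was called. Over both genomes the 45 calls in MC38.7 became 24 without IFNb replicate 3 and 29 without IFNg replicate 1, and the 41 in LLC became 23 without IFNg replicate 3. The 10 in Renca became 3 without IFNb replicate 1, 4 without IFNb replicate 3 and 18 without IFNg replicate 3. The 7 in KPC.2 became 3 without IFNb replicate 1 or IFNg replicate 3 and 4 without IFNb replicate 2, and the 3 in CT26.2 became 1 without IFNb replicate 2. The higher values in B16.1, LLC and MC38.7 were not particular to the subunits. Of 87 cytosolic ribosomal proteins tested, 73 were higher and 1 lower in B16.1, 33 and 3 in LLC and 40 and 2 in MC38.7. In Panc02.3 34 of them were higher and 11 lower. Of 2493 tested genes outside the set with transcripts under 1000 nucleotides, 38.3% were higher and 18.4% lower in B16.1. These shares were 22.4% and 10.1% in LLC, 25.9% and 6.94% in MC38.7 and 23.9% and 32.9% in Panc02.3.

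Tested as a difference between the 8 lines, the responses were not the same for most members, nor for many other genes. The IFNb response differed between lines for 52 of 79 nuclear and 11 of 13 mitochondrially encoded members, where 48.2% of all genes tested did, and without YUMMER1.7 for 46 nuclear and 11 mitochondrially encoded members, where 47.3% did. The IFNg response differed for 59 of 79 nuclear members, a share near the 69.2% of all genes, and for all 13 mitochondrially encoded members.

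Genes around the complexes did not all follow the subunits. The enzymes of the citric acid cycle, which feeds the chain, fell with the subunits, in a list that also held pyruvate dehydrogenase genes and Pcx. Of these 19 genes, none rose and 11 fell on the mean of lines with either interferon (with IFNb DESeq2 called 1 rise). Pcx, pyruvate carboxylase, changed by -0.36 ± 0.03 (adjusted p = 4.3e-13) with IFNb and -0.54 ± 0.04 (adjusted p = 5.2e-19) with IFNg, and Idh2, the mitochondrial NADP-linked isocitrate dehydrogenase, by -0.30 ± 0.03 (adjusted p = 4.0e-15) and -0.52 ± 0.03 (adjusted p = 2.1e-25). Idh2 had 267, 249 and 258 CPM with IFNb, 103, 110.3 and 107 CPM with IFNg, and 443, 461 and 463 CPM in NS libraries of B16.1, with the 3 groups apart. Dld, a shared subunit of the dehydrogenase complexes, rose in Panc02.3 with IFNg (0.87 ± 0.07 (adjusted p = 2.7e-16)). In Panc02.3 2 of the 19 rose and 11 fell.

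The machinery that makes the mitochondrially encoded subunits moved the other way in Panc02.3 with IFNg. Of 78 mitochondrial ribosomal proteins 44 rose and 9 fell (median 0.28), where 23.2% of all genes rose and 31.6% fell in Panc02.3 with IFNg, and of 21 factors of mitochondrial RNA processing and decay 14 rose and 1 fell (median 0.82). Of 19 genes of mitochondrial DNA transcription and replication 10 rose and 5 fell (median 0.56), and of 17 complex I assembly factors 11 rose and 4 fell (median 0.46). Pnpt1, a mitochondrial exoribonuclease first found as an interferon target in human cells, had 69.1, 74.7 and 76.1 CPM with IFNb, 174, 187 and 196 CPM with IFNg, and 47.4, 39.7 and 47.4 CPM in NS libraries, with the 3 groups apart (2.03 ± 0.09 (adjusted p = 1.3e-28) with IFNg). Ndufaf4, an assembly factor of complex I, rose (1.76 ± 0.13 (adjusted p = 9.0e-18)), as did Elac2, which cuts the 3′ ends of mitochondrial tRNAs (1.46 ± 0.08 (adjusted p = 2.7e-23)), Trmt10c of mitochondrial RNase P (1.42 ± 0.09 (adjusted p = 3.5e-20)) and Mrps2 (1.57 ± 0.08 (adjusted p = 6.0e-26)). Surf1, an assembly factor of complex IV, fell (-1.10 ± 0.12 (adjusted p = 1.7e-11)), and of the assembly factors of complexes II to V 11 of 35 rose and 10 fell, near the shares of all genes. Of 13 coenzyme Q synthesis genes 4 rose and 7 fell. Of 13 regulators of mitochondrial biogenesis 8 rose and 3 fell (median 0.38), among them Myc (2.24 ± 0.06 (adjusted p = 1.1e-36)), Pprc1 (1.65 ± 0.11 (adjusted p = 9.3e-21)) and Nrf1 (0.85 ± 0.09 (adjusted p = 2.7e-12)). Nrf1 fell in B16.1 with IFNg (-1.07 ± 0.09 (adjusted p = 1.2e-15)), as did Gabpa (-0.92 ± 0.08 (adjusted p = 9.5e-15)).

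On the mean of lines the counts of these lists are to be read against 13% of all genes rising and 17.3% falling with IFNb, and 18.3% rising and 23.7% falling with IFNg. With IFNg 35 of 78 mitochondrial ribosomal proteins rose and 8 fell (median 0.06), led by Mrps34 (0.39 ± 0.03 (adjusted p = 6.5e-18)), and with IFNb 13 rose and 14 fell, near those shares. Of the RNA processing and decay factors 8 rose and 2 fell with IFNb and 11 rose and 1 fell with IFNg, with Pnpt1 at 0.80 ± 0.03 (adjusted p = 5.0e-31) and 0.66 ± 0.03 (adjusted p = 2.9e-27). In LLC with IFNb, where the mitochondrially encoded mRNAs fell, Pnpt1 had 336, 322 and 337 CPM with IFNb, 126 and 129.6 CPM with IFNg, and 123, 118 and 125 CPM in NS libraries, the IFNb group far above the others (1.45 ± 0.07 (adjusted p = 4.0e-25)). Tfb2m, a mitochondrial transcription factor, fell there (-0.67 ± 0.07 (adjusted p = 3.1e-11)). In Renca with IFNg, where 12 of the 13 fell, Pnpt1 changed by 0.34 ± 0.09 (adjusted p = 0.0075). The Pnpt1 means of lines also cover B16.1, where some mitochondrially encoded mRNAs rose. A link of Pnpt1 or Tfb2m to the levels of these mRNAs was not tested. Of the complex I assembly factors 3 of 17 rose and 3 fell with IFNb, again near those shares, and 5 rose and 1 fell with IFNg, with Foxred1 at 0.33 ± 0.03 (adjusted p = 1.3e-12). Among factors for the other complexes Cox18 rose with both (0.43 ± 0.06 with IFNb and 0.34 ± 0.05 with IFNg) and Cox20 (-0.41 ± 0.07 and -0.35 ± 0.06) and Pet100 (-0.45 ± 0.07 and -0.27 ± 0.07) fell with both. Cycs, the cytochrome c that links complexes III and IV, rose with IFNg (0.38 ± 0.03 (adjusted p = 4.9e-16)), and Atpif1, the inhibitor of ATP synthase, fell (-0.21 ± 0.03 (adjusted p = 7.5e-09)). Among 11 interferon-linked mitochondrial genes 5 rose with IFNb and 10 with IFNg, with Rsad2, an antiviral enzyme, at 4.38 ± 0.09 (adjusted p = 3.1e-45) with IFNb, and Nos2 (4.17 ± 0.93 (adjusted p = 1.8e-04)) and Acod1, which makes itaconate, an inhibitor of complex II (3.91 ± 0.59 (adjusted p = 2.8e-07)), with IFNg.

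Most nuclear subunit mRNAs are short. Among the 79 tested nuclear members 59 had a median coding transcript under 1000 nucleotides. Of 2493 tested genes outside the set with such transcripts, 10.7% rose and 23.5% fell with IFNb in B16.1, where 14.6% and 14.3% of all genes did. In LLC with IFNb 15.4% rose and 27.3% fell (17.6% and 21.0% of all genes), and in MC38.7 11.1% rose and 22.2% fell (13.8% and 16.8%). On the IFNb mean of lines 10.1% rose and 26.3% fell (13% and 17.3%). With IFNg in Panc02.3 24.6% rose and 34.6% fell, near the 23.2% and 31.6% of all genes. The cytosolic ribosomal proteins, a list chosen after the data had been seen, fell beside the subunits with IFNb in B16.1 and LLC. In B16.1 66 of 87 fell and none rose (limma-voom called 1 rise), and in LLC 46 fell and 1 rose. In MC38.7 with IFNb 19 of 87 fell and 1 rose, where 16.8% of all genes fell and 13.8% rose. In Panc02.3 with IFNg the ribosomal proteins did not fall beside the subunits: 23 rose and 23 fell (median 0.03) while 53 nuclear subunits fell. In YUMMER1.7 with IFNg 49 of these ribosomal proteins fell and 1 rose. The part of transcript length in the falls was not tested.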

How the data were processed

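RNA of 8 mouse cancer lines, given IFNb, IFNg or neither, was extracted with RNeasy kits and made into libraries with a directional kit, per the labels' protocols. Estimated counts by gene symbol, whole numbers, were deposited by the authors in a single table, and the submitters' processing notes name Trimmomatic 0.36, kallisto and mm10, but the step from transcripts to genes is not given in the sources used here. The counts were fitted with edgeR 4.0.16 (R 4.3.3): filterByExpr, TMM scaling, 24 group coefficients over 70 libraries, quasi-likelihood F tests and Benjamini-Hochberg adjustment over 16147 genes. Standard errors were taken as the log2 fold change over the square root of F. Contrasts were made within each line, on the mean of lines, for each line against the other 7, and as an F test between lines. The alternatives were DESeq2 1.42.0, limma-voom (limma 3.58.1), other scalings, no filter, each line alone, a replicate block and each library left out. The fit was tested on simulated data with a constant dispersion and IFNg changes alike in all lines. Changes in low-count genes and responses that differ between lines were not simulated. Tables were made with Python 3.11.15, pandas 2.3.3 and numpy 2.4.6.

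Libraries held 668355 to 28550816 counts, so a floor of 3 counts over a group meant 0.0389 to 0.335 CPM. Pairs of replicates differed by more than sampling noise (chi-square per degree of freedom 1.53 to 15.9). The members and gene lists were chosen with earlier results of these data known. The genes named were all mitochondrially encoded members, the nuclear members with the largest called changes per line and on the mean of lines with more than 3 counts in both groups, the largest NS departure of each line, all isoform genes and up to 4 called genes from each other list. Ndufb9, Ndufa13, Ndufb2, Sdhc, Dld, Elac2, Mrps2, Nrf1, Surf1, Adgre1, Cdh5 and Ptprc, and the single-line values of list genes, were chosen after their values were seen. The short-transcript and ribosomal protein comparisons, and the fit without YUMMER1.7, were added after seeing the data. Floors cover counting error only.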

Additional observations from a re-analysis of the deposited data

Results flagged for a closer look

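Several results were marked because the response to 1 interferon differed between the 8 lines by edgeR's F test of the difference, with Benjamini-Hochberg adjustment over all genes tested. With IFNb 52 of 79 nuclear and 11 of 13 mitochondrially encoded members differed, where 48.2% of all genes did. Uqcrh led (adjusted p = 1.6e-15), with -1.29 ± 0.08 in LLC and 0.02 ± 0.07 in Panc02.3. Cox6a2 followed (adjusted p = 8.1e-13), at 0 counts in LLC NS libraries and present in LLC IFNb libraries. Atp5mpl was next (adjusted p = 2.5e-09), with -0.82 ± 0.07 in LLC and -0.24 ± 0.03 on the mean of lines.

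With IFNg 59 of 79 nuclear and all 13 mitochondrially encoded members differed between lines, where 69.2% of all genes did. The nuclear share was thus near that of all genes. Cox7a2 led (adjusted p = 9.6e-19), with -1.51 ± 0.09 in Panc02.3 against 0.19 ± 0.06 in MC38.7. Uqcrh had adjusted p = 3.6e-18, with -1.96 ± 0.10 in Panc02.3 and 0.02 ± 0.07 in MC38.7. Sdha had adjusted p = 2.1e-17, with -1.11 ± 0.06 in Panc02.3 and -0.04 ± 0.06 in LLC.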

How the results depend on the processing

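The counts below are members called per line over both genomes unless a genome is named, and the cause of each move was not tested unless the setting itself gives it. No called value of a single gene on the mean of lines changed sign, and the summed levels on the mean of lines stayed within the spread between libraries under each setting. DESeq2 in place of edgeR gave 7 with IFNb in Panc02.3, 20 with IFNb in Renca, 2 with IFNg in MC38.7, and, for IFNg minus IFNb, 27 in MC38.7 and 16 in Renca, and called 1 nuclear rise on the IFNb mean of lines. Limma-voom gave 2 with IFNb in KPC.2, 0 with IFNb in YUMMER1.7, 1 with IFNg in MC38.7 and 1 nuclear rise on the IFNb mean. DESeq2 size factors gave 1 with IFNb in KPC.2, 0 with IFNb in YUMMER1.7, 1 with IFNg in MC38.7 and 23 for IFNg minus IFNb in MC38.7. Library totals gave 0 with IFNb in YUMMER1.7, 57 with IFNg in KPC.2 and 1 in MC38.7, and, for IFNg minus IFNb, 14 in KPC.2, 18 in YUMMER1.7 and, averaged over lines, 11 nuclear rises, 20 nuclear falls and 2 mitochondrial falls. Scaling without the mitochondrially encoded genes gave 0 with IFNb in YUMMER1.7. Without the filter on low counts the counts were 9 with IFNb in CT26.2, 16 in KPC.2 and 6 in YUMMER1.7, 13 with IFNg in CT26.2, and 1 in CT26.2 and 4 in KPC.2 for IFNg minus IFNb, with 1 mitochondrial rise on the IFNb mean and 1 rise and 4 falls on the IFNg minus IFNb mean. Each line fitted alone, which gives no mean of lines, gave 1 with IFNb in CT26.2, 13 in KPC.2 and 9 in YUMMER1.7, 3 with IFNg in CT26.2, 32 in LLC, 3 in MC38.7 and 32 in YUMMER1.7, and 1 in CT26.2, 12 in KPC.2, 6 in Renca and 12 in YUMMER1.7 for IFNg minus IFNb. Requiring also a 1.5-fold change, which by its construction drops the small changes, left with IFNb 7 in B16.1, 0 in CT26.2, 1 in KPC.2, 21 in LLC, 0 in MC38.7, 2 in Panc02.3, 6 in Renca, 0 in YUMMER1.7 and 1 on the mean (1 nuclear and 0 mitochondrial falls). With IFNg it left 5 in B16.1, 1 in CT26.2, 0 in KPC.2, 1 in LLC, 33 in Panc02.3, 10 in Renca, 2 in YUMMER1.7, and 2 over the mean (1 nuclear rise, 1 nuclear and 0 mitochondrial falls). For IFNg minus IFNb it left 12 in B16.1, 0 in CT26.2, 0 in KPC.2, 9 in LLC, 1 in MC38.7, 30 in Panc02.3, 1 in Renca, 1 in YUMMER1.7, and 0 over the mean of lines, nuclear rises and falls included.

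Leaving out YUMMER1.7, an alternative added after seeing the data, gave 1 mitochondrial fall for IFNg minus IFNb on the mean of lines and moved no other count there by over 1.5 times.

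Leaving out each library in turn gave ranges of 1 to 2 with IFNb in CT26.2, 0 to 5 in KPC.2, 22 to 38 in MC38.7, 2 to 5 in Panc02.3, 3 to 14 in Renca and 0 in YUMMER1.7. With IFNg the ranges were 3 to 9 in CT26.2, 16 to 28 in KPC.2, 5 to 7 in LLC and 5 to 26 in Renca. For IFNg minus IFNb they were 1 to 3 in CT26.2, 3 to 6 in KPC.2, 23 to 37 in LLC, 24 to 37 in MC38.7 and 3 to 18 in Renca, with 0 to 1 mitochondrial falls on the mean. Of the values of single genes on the mean of lines with 1 library left out, 27 no longer passed, 14 newly passed and 3493 stayed on their side of the threshold. Same-numbered libraries of a line did not deviate together (correlations -0.17 to 0.10 over 68 pairs, against -0.13 to 0.11 for 136 pairs of different number), so no pairing by number was seen. With so few libraries per group a weak pairing could be missed. With the replicate block the calls for IFNg minus IFNb in Renca numbered 6, Cox7a1 with IFNb (-0.59) and Cox6a1 with IFNg (-0.08) no longer passed on the mean of lines, and no other count over both genomes moved by over 1.5 times, while 8 counts by genome and direction in single lines did. The shallowest library was KPC.2 IFNb replicate 3, with 668355 counts.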

Other observations

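On the mean of lines 13% of all genes rose and 17.3% fell with IFNb, and 18.3% rose and 23.7% fell with IFNg. Of 19 factors of mitochondrial DNA transcription and replication, 1 rose and 4 fell with IFNb and 3 rose and 4 fell with IFNg on the mean of lines. Tfam, which packages mitochondrial DNA and starts its transcription, rose with IFNb (0.11 ± 0.03 (adjusted p = 0.001)). With IFNg the mitochondrial topoisomerase Top1mt rose (0.35 ± 0.04 (adjusted p = 6.2e-10)), while Polg, the catalytic subunit of the mitochondrial DNA polymerase (-0.21 ± 0.03 (adjusted p = 2.1e-09)), and Polrmt, the mitochondrial RNA polymerase (-0.16 ± 0.03 (adjusted p = 1.2e-05)), fell. Among 13 coenzyme Q genes 2 rose and 4 fell with IFNb, and 5 rose and 3 fell with IFNg. Coq8b, a kinase-like protein of this pathway, fell with IFNb (-0.18 ± 0.05 (adjusted p = 0.0018)) and rose with IFNg (0.30 ± 0.05 (adjusted p = 9.6e-08)), and Pdss1, which makes the isoprenoid tail, rose with IFNg (0.30 ± 0.05 (adjusted p = 1.8e-07)).

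Of 35 assembly factors for complexes II to V, 6 rose and 10 fell with IFNb and 9 rose and 6 fell with IFNg. Sdhaf1, which helps insert iron-sulfur clusters in complex II, fell with IFNb (-0.28 ± 0.07 (adjusted p = 0.0011)), and Sco2, a copper chaperone of complex IV, rose with IFNg (0.31 ± 0.07 (adjusted p = 1.8e-04)). Of 13 regulators of mitochondrial biogenesis 2 rose and 1 fell with IFNb and 5 rose and 3 fell with IFNg, with the coactivator Ppargc1b among the rises (0.49 ± 0.12 (adjusted p = 7.0e-04)). Of 87 cytosolic ribosomal protein genes tested 68 fell with IFNb, above the share of all genes, and with IFNg 6 rose and 22 fell, the falls near it. Rpl12 rose with IFNg (0.39 ± 0.04 (adjusted p = 7.7e-13)), and Rpl37a fell with IFNb (-0.35 ± 0.03 (adjusted p = 5.3e-14)) and with IFNg (-0.23 ± 0.03 (adjusted p = 5.8e-09)).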
